A study of Mus musculus with 4 samples.

Results

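The genes described here were 44 genes of G2 phase and mitosis, chosen by name from the 55401 gene models quantified in a mouse RNA-seq experiment and placed in 8 roles, and all 44 passed the filter on low counts that left 14635 genes for testing. Transcripts were measured in 2 libraries from Cpt1a KO mice and 2 libraries from Control mice, made from bone marrow cells sorted as what the labels call ltHSC, long-term hematopoietic stem cells (LT-HSCs here). The comparison asked how loss of CPT1A, the enzyme that lets long-chain fatty acids enter mitochondria, alters the transcriptome of these cells. The KO mice were Cpt1a fl/fl mice that also carried Vav1-Cre, a Cre recombinase active throughout the blood system, so that the gene was deleted in blood cells at large and not in stem cells alone. The Control mice were Cpt1a fl/fl mice, which the labels call WT, and both genotypes were on a C57BL/6 background, with adult mice used in the study in general and no drug treatment in the labels. In the study's text the RNA is said to come from stem and progenitor cells together, which is broader than the label. Whether replicates were separate animals is not in the labels, and the p-values then cover only the spread between these libraries, which may be technical.

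A cell that has copied its DNA enters mitosis when cyclin B and the kinase CDK1 become active. Condensed chromosomes are then attached to spindle microtubules through kinetochores, a checkpoint holds the cell until every chromosome is attached, and the anaphase-promoting complex (APC/C) marks cyclin B and securin for destruction so that sister chromatids part and the cell divides. Most of these genes are transcribed late in the cell cycle, and their promoters often carry a cell cycle genes homology region (CHR), bound by the DREAM and MuvB-FOXM1 complexes, and a CCAAT box, bound by NF-Y. LT-HSCs are known as mostly quiescent cells, whereas the progenitors that they give rise to divide often. In bulk RNA, a larger share of dividing cells and more RNA of these genes per cell cannot be told apart.

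Estimated counts summed to 34083159 and 33909781 in the KO libraries, against 20589218 and 23291747 in the Control libraries, so the KO libraries were the deeper ones. Cpt1a RNA was reduced and not absent, at 11.5 and 19.2 TPM (transcript abundance scaled for depth and transcript length) in the KO libraries, against 37.0 and 35.6 TPM in the Control libraries. TPM of the whole gene does not show whether intact transcript was left. The study reports that PCR and Western blotting showed a successful knockout in c-Kit+ bone marrow cells. Kit, the receptor used to enrich stem and progenitor cells, was present in all 4 libraries, at 262 and 275 TPM in KO and 253 and 232 TPM in Control. Slamf1, an LT-HSC marker, was low, at 4.83 and 2.88 TPM in KO and 4.44 and 4.41 TPM in Control. Hoxb5, another LT-HSC marker, was at 0.18 and 0 TPM in KO and 0.65 and 1.12 TPM in Control. Markers that LT-HSCs lack, Cd48 and Flt3, were abundant, with Cd48 at 160 and 146 TPM in KO and 88.0 and 80.3 TPM in Control, and Flt3 at 227 and 225 TPM in KO and 179 and 223 TPM in Control. The label was thus only partly borne out by the markers, with progenitor genes present in every library. Among 14 LT-HSC markers none passed the test in either direction with edgeR, and DESeq2 called 1, Mecom, as lower (3.24% of all genes). At an unadjusted p under 0.05, 2 were lower (4.61% of all genes) and 0 higher (5.81% of all genes).

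Mitotic transcripts were abundant in all 4 libraries. No member was at 0 in any library, and the lowest estimated count of a member was 175. The median member stood at 74.7 and 66.9 TPM in the KO libraries and at 63.9 and 52.4 TPM in the Control libraries. Members ranged over 16.4 to 413 and 16.2 to 404 TPM in KO, and over 10.3 to 400 and 13 to 263 TPM in Control. Top2a, the topoisomerase that untangles sister chromatids, was the most abundant member in each library, and Cdc25c or Sgo1 the least. Summed over the 44 genes, the level was 3884 and 3690 TPM in KO and 3498 and 3004 TPM in Control, a mean of 3787 ± 137 TPM in KO and 3251 ± 349 TPM in Control (SD, n = 2 each). Both KO sums thus lay above both Control sums, at 1.16 times the Control mean, and the gap between the Control replicates was of the same order as the gap between the groups. Of the 44 members, 26 had their highest TPM in KO replicate 1 and 25 had their lowest in Control replicate 2.

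**Figure D1:**
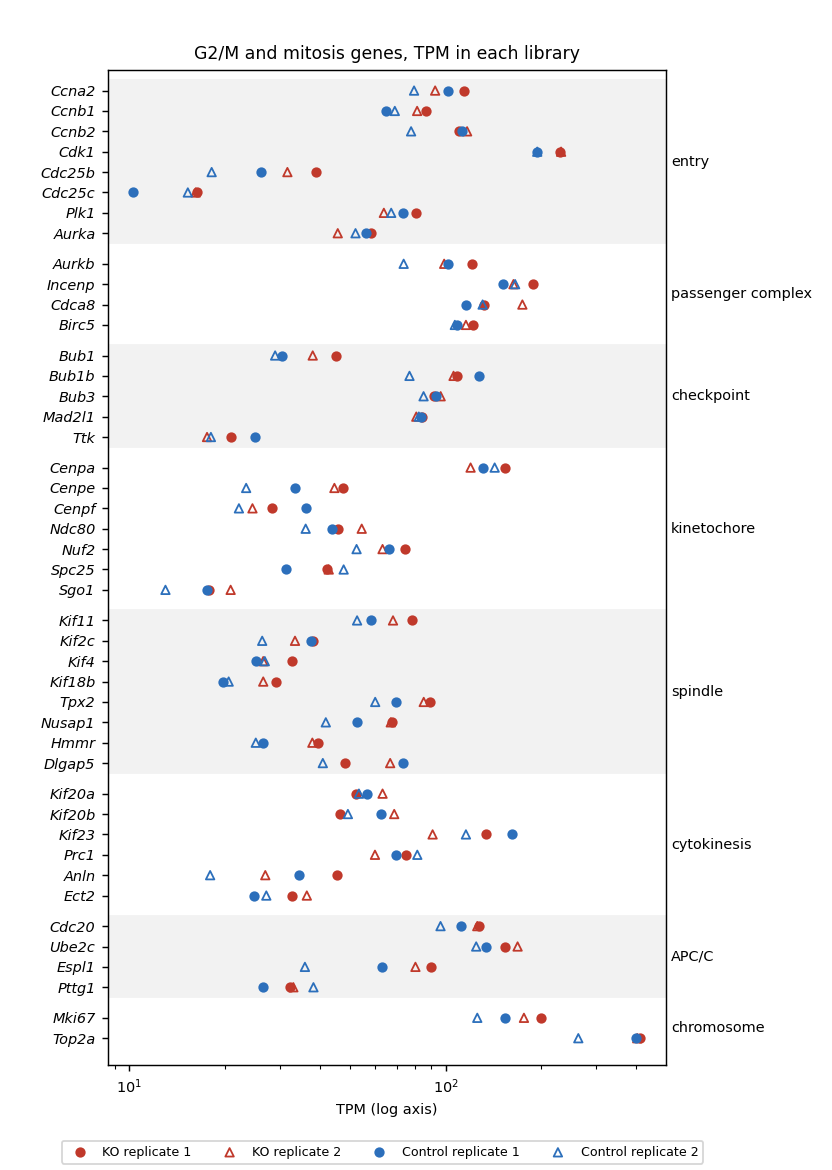
TPM of the 44 members in each library on a log axis, grouped by role, with KO in red and Control in blue, replicate 1 as filled circles and replicate 2 as open triangles. The groups lie close together for most genes, both red points lie right of both blue points for 21 of 44 genes, and Control replicate 2 is the lowest point for 25.

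No member passed the test across all genes. By edgeR's quasi-likelihood test with Benjamini-Hochberg adjustment over the 14635 genes, 0 of 44 members were called higher in KO (background 0.451% of all genes) and 0 were called lower (background 0.212%), with the lowest adjusted p at 0.198, for Cenpe. At an unadjusted p under 0.05 the count was 11 of 44 members higher (background 5.81%) and 0 lower (background 4.61%). With DESeq2, the tool the study's methods name, 10 members had an adjusted p under 0.05 and were higher in KO (background 3.95% of the 15535 genes with an adjusted p), and 0 were lower (background 3.24%). The threshold of the study was an unadjusted p under 0.05 with an absolute log2 fold change over 1. It was applied here to the edgeR values, not to those of DESeq2. No member met it on either side (backgrounds 2.44% higher and 1.33% lower).

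The differences were small and mostly of 1 sign. The log2 fold change, KO over Control, was above 0 for 40 of 44 members (background 50.9%), with a median of 0.21 over the members and 0.01 over all genes tested, and it ran from -0.18 for Ttk to 0.58 for Cdc25b. The 4 members below 0 were Aurka, Mad2l1, Ttk and Prc1. For 42 of 44 members the 95% interval lay inside a doubling or halving, the exceptions being Cdc25b (upper end 1.03) and Cdc25c (upper end 1.17). Standard errors ran from 0.0931 to 0.388 with a median of 0.143. In TPM, 21 members had both KO libraries above both Control libraries (background 23.1%) and 0 had both below (background 16.8%), and the groups overlapped for the other 23. In CPM, counts scaled for depth without transcript length, 22 members had both KO libraries above (background 23.6%) and 2, Mad2l1 and Prc1, had both below (background 18.3%). Of the 11 members with an unadjusted p under 0.05, which comes from the same counts, 10 had both KO libraries above in both units, the exception being Cenpf. Members share libraries and vary together through the cell cycle, so 40 of 44 is a description of these 4 libraries.

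**Figure D2:**
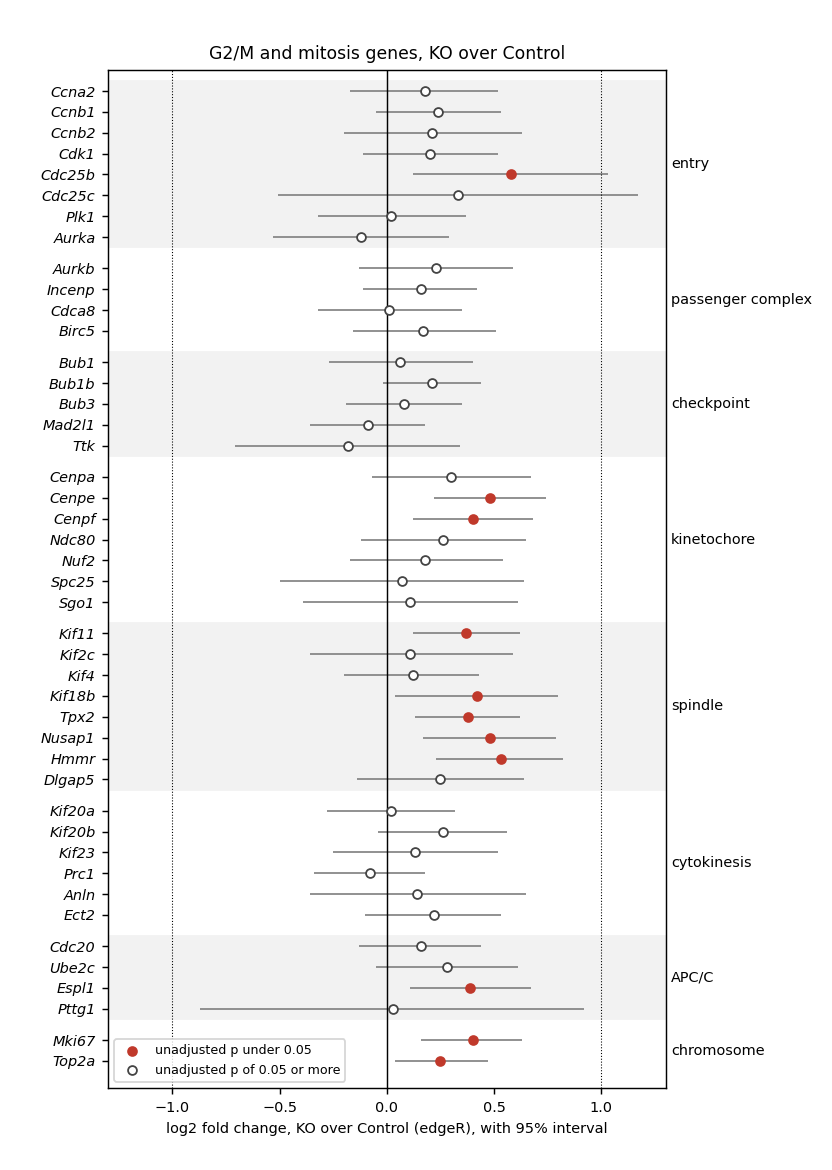
Log2 fold change of each member, KO over Control, from edgeR with its 95% interval, grouped by role, red where the unadjusted p was under 0.05, with dotted lines at -1 and 1. The points sit between -0.18 and 0.58, 11 are red, and 5 of the red points are spindle genes.

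The members share sequence features that their choice by name did not use. Promoters from RefSeq (GRCm38.p6), from 250 bases before to 50 bases after the start, were found for 37 of the 44 members. The CHR, searched as TTTGAA or TTCGAA on both strands, was present in 30 of 37 (81.1%), against 21.7% of 27025 genes with a promoter of that length. CCAAT, on both strands, was present in 28 of 37 (75.7%), against 41.1% of all genes, and both motifs in 26 of 37 (70.3%), against 9.65%. Among 50 promoters of other mitotic genes, a list described below, 31 held the CHR (62%), 36 CCAAT (72%) and 24 both (48%). The features were thus not particular to the members. A CHR that began between 60 bases before and 50 bases after the start, limits not set in advance, was found in 28 of 37 members (75.7%) and in 5.86% of all genes. The 7 members without these CHR letters were Nuf2, Nusap1, Cenpe, Mad2l1, Pttg1, Birc5 and Ccnb1. A match is a description of the letters and not a site of binding, and no binding was measured here.

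**Figure D3:**
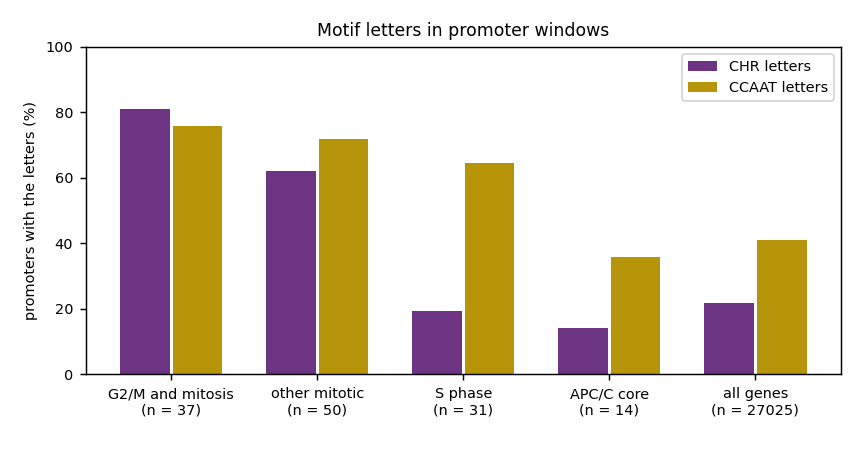
Share of promoters that hold the CHR letters (purple) and the CCAAT letters (gold), in percent, for the members and for other gene lists, with the number of promoters under each pair of bars. The CHR bar is 81.1% for the members, 62% for other mitotic genes and 19.4% for S phase genes. The CCAAT bars are 75.7%, 72% and 64.5%.

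The promoters of 6 members described below show how the motifs lie, 4 with both motifs and 2 with 1 of them in the stretch printed. Each line runs 5′ to 3′ on the strand of the gene, from 120 bases before to 30 bases after the start, and capitals mark the CHR letters and the CCAAT letters on either strand, so that a CCAAT on the opposite strand reads as its reverse complement. The positions in GRCm38.p6 are Hmmr at chr11:40733408-40733557 (minus strand), Kif11 at chr19:37376262-37376411 (plus strand), Top2a at chr11:99024160-99024309 (minus strand), Cdk1 at chr10:69352883-69353032 (minus strand), Mki67 at chr7:135716350-135716499 (minus strand) and Cenpe at chr3:135212443-135212592 (plus strand).
Hmmr: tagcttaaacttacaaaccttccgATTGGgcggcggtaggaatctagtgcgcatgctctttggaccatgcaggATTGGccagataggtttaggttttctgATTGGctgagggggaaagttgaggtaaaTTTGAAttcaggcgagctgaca
Kif11: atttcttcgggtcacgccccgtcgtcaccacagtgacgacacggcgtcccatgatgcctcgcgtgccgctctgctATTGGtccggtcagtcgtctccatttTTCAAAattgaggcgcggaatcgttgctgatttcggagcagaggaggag
Top2a: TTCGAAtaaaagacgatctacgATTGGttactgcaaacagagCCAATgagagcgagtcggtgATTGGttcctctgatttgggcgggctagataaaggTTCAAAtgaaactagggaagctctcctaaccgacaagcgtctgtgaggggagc
Cdk1: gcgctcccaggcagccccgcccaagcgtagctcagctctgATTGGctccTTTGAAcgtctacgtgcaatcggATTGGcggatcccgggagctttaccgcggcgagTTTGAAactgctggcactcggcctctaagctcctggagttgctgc
Mki67: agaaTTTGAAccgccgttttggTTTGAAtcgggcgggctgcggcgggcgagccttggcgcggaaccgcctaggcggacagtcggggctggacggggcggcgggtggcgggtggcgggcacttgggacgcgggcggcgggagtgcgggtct
Cenpe: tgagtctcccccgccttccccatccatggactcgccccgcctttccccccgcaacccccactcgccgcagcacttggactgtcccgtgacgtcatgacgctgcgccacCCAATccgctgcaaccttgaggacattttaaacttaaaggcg
Hmmr, Kif11, Top2a and Cdk1 each have a CHR close to the start and at least 1 CCAAT box before it. Mki67 has a pair of CHR matches far from the start and no CCAAT in this stretch, and Cenpe has a CCAAT box and no CHR.

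Spindle motors and microtubule proteins held 5 of the 11 members with an unadjusted p under 0.05, and all 8 had a log2 fold change above 0 (median 0.37). Their summed level was 423 and 412 TPM in KO and 362 and 294 TPM in Control. Hmmr (GRCm38 chromosome 11, 40701395 to 40733422), which ties TPX2 to the spindle, was at 39.4 and 37.9 TPM in KO and 26.4 and 25.1 TPM in Control. Its replicates lay close together in both groups and the groups did not overlap, with a log2 fold change of 0.53 (SE 0.128, edgeR adjusted p = 0.215). Nusap1, a microtubule-bundling protein, was at 67.5 and 67.1 TPM in KO and 52.4 and 41.8 TPM in Control, with a log2 fold change of 0.48 (SE 0.135, edgeR adjusted p = 0.287). Tpx2, the spindle assembly factor that activates Aurora A, was at 89.6 and 85.3 TPM in KO and 69.7 and 59.9 TPM in Control, with a log2 fold change of 0.38 (SE 0.107, edgeR adjusted p = 0.287). In all 3 genes both KO libraries were above both Control libraries, and the KO replicates differed by less than the Control replicates for Nusap1 and Tpx2. Kif11, the motor that pushes spindle poles apart, was at 78.6 and 68.2 TPM in KO and 57.9 and 52.5 TPM in Control, a log2 fold change of 0.37 (SE 0.107, edgeR adjusted p = 0.295). Kif18b, a motor that shortens microtubules, was at 29.1 and 26.5 TPM in KO and 19.8 and 20.6 TPM in Control, a log2 fold change of 0.42 (SE 0.165, edgeR adjusted p = 0.442). The groups were again apart in both. The other 3, Kif2c, Kif4 and Dlgap5, had log2 fold changes of 0.11 to 0.25 and overlapping TPM, and for Dlgap5 KO spanned 47.9 to 66.8 TPM inside the Control values of 40.9 and 73.5 TPM.

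Both mitotic chromosome genes had an unadjusted p under 0.05. Mki67 (chromosome 7, 135689784 to 135716361), the proliferation marker whose protein coats mitotic chromosomes, was at 201 and 177 TPM in KO and 154 and 126 TPM in Control, a mean of 189 ± 17.2 TPM in KO and 140 ± 19.6 TPM in Control (SD, n = 2 each). The groups did not overlap, and the log2 fold change was 0.40 (SE 0.102, edgeR adjusted p = 0.237). Top2a (chromosome 11, 98992943 to 99024189) was at 413 and 404 TPM in KO and 400 and 263 TPM in Control. Control replicate 1 was thus next to the KO libraries and Control replicate 2 stood well below, and the log2 fold change was 0.25 (SE 0.0931, edgeR adjusted p = 0.421).

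Among the 7 centromere and kinetochore genes all log2 fold changes were above 0 (median 0.26), and 2 had an unadjusted p under 0.05. Cenpe (chromosome 3, 135212537 to 135273611), a kinetochore motor that brings chromosomes to the spindle equator, was at 47.4 and 44.5 TPM in KO and 33.3 and 23.4 TPM in Control. The groups did not overlap and the log2 fold change was 0.48 (SE 0.113, edgeR adjusted p = 0.198). Cenpf, a large kinetochore and nuclear matrix protein, gave a log2 fold change of 0.40 from counts (SE 0.121, edgeR adjusted p = 0.322), yet its TPM was 28.3 and 24.5 in KO and 36.1 and 22.2 in Control. The groups overlapped in TPM, which divides by the effective length of the transcripts, and that length was 10291 and 10292 bases in KO and 5994 and 8322 bases in Control for Cenpf. Cenpa, the histone H3 variant of centromeres, was at 154 and 120 TPM in KO and 131 and 143 TPM in Control, and its log2 fold change from counts was 0.30 (SE 0.160, edgeR adjusted p = 0.569). Ndc80, Nuf2 and Spc25, subunits of the complex that grips microtubules, had log2 fold changes of 0.26, 0.18 and 0.07, and Sgo1, the protector of centromeric cohesion, 0.11. Of these 4 only Ndc80 and Sgo1 had both KO libraries above both Control libraries in TPM.

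The 8 genes of mitotic entry had a median log2 fold change of 0.21, and 7 were above 0. Cdc25b (chromosome 2, 131186949 to 131198497), a phosphatase that starts CDK1 activation, was at 38.8 and 31.6 TPM in KO and 26.1 and 18.2 TPM in Control. Its log2 fold change of 0.58 was the largest of the members (SE 0.197, unadjusted p = 0.0191, edgeR adjusted p = 0.390). Ccnb1, cyclin B1, was at 86.9 and 81.3 TPM in KO and 64.7 and 69.1 TPM in Control, a log2 fold change of 0.24 (SE 0.127, edgeR adjusted p = 0.566). Of the sequence of the longest Ccnb1 transcript 42.1% also occurs in other gene models, among them a pseudogene, so its counts can depend on how RSEM split shared reads. RSEM's posterior SD of the Ccnb1 count was at most 0.0546% of the mean count in any library. Cdk1 (chromosome 10, 69335146 to 69352938), the kinase that cyclin B activates, was at 230 and 232 TPM in KO and 194 and 195 TPM in Control. In TPM its replicates were nearly equal within each group, while in CPM they were 116 and 96.1 in KO and 92 and 91 in Control. The effective length of Cdk1 was 715 and 575 bases in KO and 654 and 641 bases in Control. Its log2 fold change was 0.20 (SE 0.136, edgeR adjusted p = 0.674). Plk1, the polo-like kinase, was at 80.8 and 63.8 TPM in KO and 73.1 and 67.3 TPM in Control, with the KO values on both sides of the Control values. Its log2 fold change was 0.02 (SE 0.149, 95% interval -0.32 to 0.37, edgeR adjusted p = 0.988). Aurka, the spindle pole kinase, had a log2 fold change of -0.12 with a 95% interval of -0.53 to 0.29. Ccna2, Ccnb2 and Cdc25c had log2 fold changes of 0.18, 0.21 and 0.33.

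The APC/C group holds its activator Cdc20, its ubiquitin-conjugating enzyme Ube2c, and the pair that controls chromatid separation, separase (Espl1) and its inhibitor securin (Pttg1). All 4 log2 fold changes were above 0, with a summed level of 404 and 408 TPM in KO and 335 and 295 TPM in Control. Espl1 (chromosome 15, 102296266 to 102324357) was at 89.7 and 80.3 TPM in KO and 63.1 and 35.9 TPM in Control, a log2 fold change of 0.39 (SE 0.122, unadjusted p = 0.0126, edgeR adjusted p = 0.342). Ube2c was at 154 and 169 TPM in KO and 134 and 125 TPM in Control, a log2 fold change of 0.28 (SE 0.143, edgeR adjusted p = 0.550). Cdc20 was at 128 and 126 TPM in KO and 112 and 96.4 TPM in Control, a log2 fold change of 0.16 (SE 0.122, edgeR adjusted p = 0.745). In these 3 genes both KO libraries were above both Control libraries in TPM. Pttg1 was at 32.2 and 33.0 TPM in KO, between the Control values of 26.4 and 38.2 TPM, and its log2 fold change of 0.03 carried the largest error of the members (SE 0.388). The 95% interval of Pttg1, -0.87 to 0.92, held the value of Espl1.

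The chromosomal passenger complex, which corrects faulty attachments and guides division, summed to 564 and 554 TPM in KO and 479 and 477 TPM in Control. In CPM the sums were 608 and 609 in KO and 577 and 518 in Control, so the Control replicates were close in TPM only. Aurkb, its kinase, was at 121 and 99.0 TPM in KO and 102 and 73.7 TPM in Control, a log2 fold change of 0.23 (SE 0.155, edgeR adjusted p = 0.673). Incenp, its scaffold, was at 189 and 164 TPM in KO and 152 and 166 TPM in Control, a log2 fold change of 0.16 (SE 0.115, edgeR adjusted p = 0.720). Birc5, survivin, was at 122 and 116 TPM in KO and 109 and 107 TPM in Control, a log2 fold change of 0.17 (SE 0.147, edgeR adjusted p = 0.772). The groups overlapped for Aurkb and Incenp and not for Birc5. Cdca8, borealin, had a log2 fold change of 0.01 from counts, with 132 and 175 TPM in KO and 116 and 131 TPM in Control.

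Spindle checkpoint genes had a median log2 fold change of 0.06, with 3 of 5 log2 fold changes above 0 and none at an unadjusted p under 0.05. Bub1b (BubR1), part of the complex that inhibits the APC/C, was at 109 and 106 TPM in KO, between the Control values of 128 and 76.9 TPM, and had a log2 fold change of 0.21 (SE 0.101, edgeR adjusted p = 0.527). Mad2l1, which binds CDC20 when a kinetochore is unattached, was at 84.0 and 80.8 TPM in KO and 83.7 and 82.3 TPM in Control, a log2 fold change of -0.09 (SE 0.117, edgeR adjusted p = 0.893). Ttk (MPS1), the kinase that starts the checkpoint signal, was at 20.9 and 17.6 TPM in KO and 25 and 18.1 TPM in Control, a log2 fold change of -0.18 (SE 0.227, edgeR adjusted p = 0.891). The groups overlapped in TPM for all 3 genes. Bub1, a kinase that marks centromeric chromatin, was the checkpoint gene whose groups did not overlap in TPM, at 45.0 and 38.0 TPM in KO and 30.3 and 28.9 TPM in Control. Its log2 fold change was 0.06 from counts and 0.47 with the length offset described below (unadjusted p = 0.0413, edgeR adjusted p = 0.574). Bub3 had a log2 fold change of 0.08.

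The 6 cytokinesis genes had a median log2 fold change of 0.14, and their summed level overlapped, at 385 and 346 TPM in KO and 410 and 345 TPM in Control. Kif20b, a motor of late mitosis, was at 46.4 and 68.8 TPM in KO and 62.5 and 49.1 TPM in Control, a log2 fold change of 0.26 from counts (SE 0.130, edgeR adjusted p = 0.541). Ect2, the exchange factor that activates RhoA at the cleavage plane, was at 32.6 and 36.4 TPM in KO and 24.8 and 27.1 TPM in Control, a log2 fold change of 0.22 (SE 0.136, edgeR adjusted p = 0.637). Kif23, a motor of the central spindle, was at 134 and 91.0 TPM in KO and 162 and 116 TPM in Control, while its log2 fold change from counts was 0.13 (SE 0.167, edgeR adjusted p = 0.893). In TPM, Ect2 was the cytokinesis gene with its groups apart, and in CPM, Kif20b (114 and 125 in KO, 93.9 and 104 in Control), Ect2 and, in the lower direction, Prc1 (126 and 117 in KO, 129 and 126 in Control, a gap lost in rounding) had theirs apart. Prc1, the bundler of the central spindle, had a log2 fold change of -0.08, Anln, the cleavage furrow scaffold, 0.14, and Kif20a, the motor that carries the passenger complex to the midzone, 0.02. The Kif20a gene model overlaps exons of an antisense gene over 29.3% of its exon bases, and whether counting used strand is unknown here.

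The count test uses no transcript length. RSEM's effective length is a mean over a gene's transcripts, corrected for fragment length and weighted by their estimated abundance. It differed by more than 1.2 times between libraries for 18 of the 44 members. With that length as an offset, 35 of 44 log2 fold changes were above 0, and the value moved by more than 0.3 for 6 members. Cenpf moved to -0.16, Kif23 to -0.33, Cenpa to -0.03, Dlgap5 to -0.01 and Pttg1 to -0.01, so these 5 changed sign. Bub1 moved to 0.47 from 0.06 and Espl1 to 0.77 from 0.39, the effective length of Bub1 being 2383 and 2455 bases in KO and 3166 and 3159 bases in Control. Mki67 (0.42), Hmmr (0.57), Tpx2 (0.42), Kif11 (0.39) and Nusap1 (0.50), whose lengths were nearly the same in all libraries, moved little. None of the members passed the adjusted threshold with the offset either (lowest adjusted p = 0.476).

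**Figure D4:**
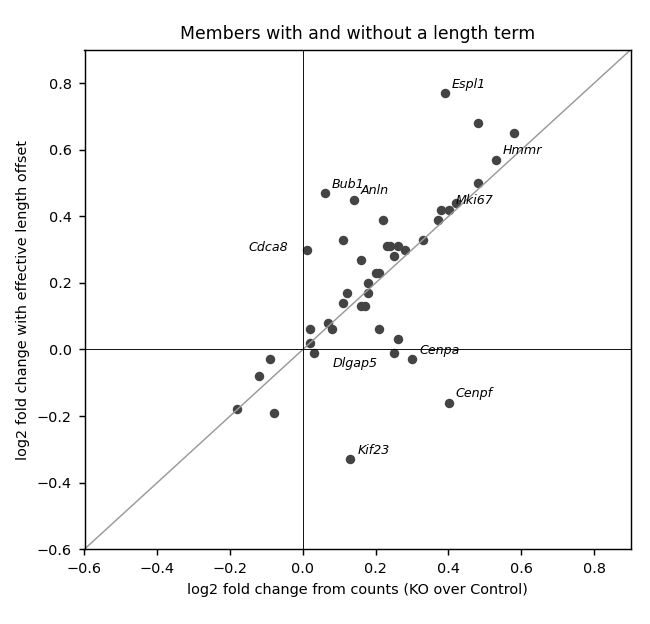
Log2 fold change of the 44 members, KO over Control, from counts alone (horizontal) and with effective length as an offset (vertical), with the diagonal in grey. Cenpf and Kif23 lie farthest below the diagonal, with vertical values of -0.16 and -0.33, and Espl1 and Bub1 lie well above it, at 0.77 and 0.47.

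Other cell cycle genes were read beside the members. Of 61 further mitotic genes (condensins, centrosome and kinetochore genes and others), 1 passed as higher in KO (background 0.451%) and 0 as lower (background 0.212%). The log2 fold change was above 0 for 42 of them (background 50.9%), and the median was 0.09. The gene that passed was Aspm, a spindle pole protein needed for symmetric division of neural progenitors, at 28.9 and 23.9 TPM in KO and 12.3 and 12.8 TPM in Control, with a log2 fold change of 0.79 (SE 0.119, edgeR adjusted p = 0.0328). With the KO group reduced to a single library, Aspm no longer passed and its log2 fold change was 0.72 without KO replicate 1 (adjusted p = 0.256) and 0.86 without KO replicate 2 (adjusted p = 0.0657). With the length offset the log2 fold change was 1.06 (adjusted p = 0.168). At an unadjusted p under 0.05, 9 of the 61 were higher (background 5.81%) and 1 lower (background 4.61%). The 15 core subunits of the APC/C had a median of 0.04, and none passed with edgeR, at an unadjusted p under 0.05 or with DESeq2.

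Genes of S phase were read the same way. Of 40 genes of S phase and replication, 12 had a log2 fold change above 0 from counts (median -0.09, background 50.9%). With the length offset the count was 18 (median -0.05, background 50.8%). In TPM, 8 had both KO libraries above both Control libraries (background 23.1%) and 8 had both below (background 16.8%). With edgeR, 0 passed as higher (background 0.451%) and 0 as lower (background 0.212%). At an unadjusted p under 0.05, 0 were higher (background 5.81%) and 3 were lower in KO (background 4.61%), and DESeq2 called 3 as lower (background 3.24%). The 3 at that unadjusted p were Ccne1, the cyclin of S phase entry, at 13.5 and 22.1 TPM in KO and 55.3 and 32.4 TPM in Control (log2 fold change -1.21, edgeR adjusted p = 0.114), Chaf1b, a histone chaperone subunit (-0.42), and Pold1, the catalytic subunit of DNA polymerase delta (-0.26). The summed level of the list overlapped, at 4899 and 5094 TPM in KO and 5156 and 5056 TPM in Control. The difference between the lists was not tested.

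**Figure D5:**
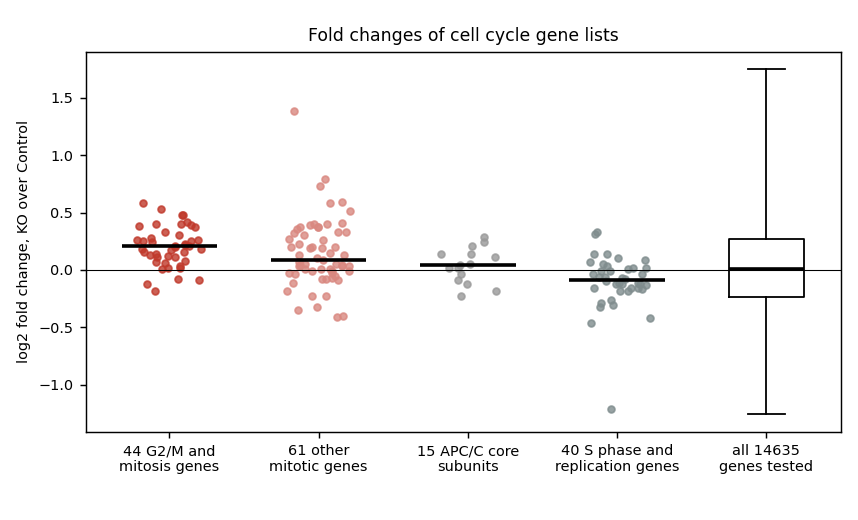
Log2 fold changes, KO over Control, of the members and of 3 other cell cycle lists, 1 point a gene with the median as a bar, beside a box for all 14635 genes tested (quartiles, whiskers from the 5th to the 95th percentile). The medians are 0.21 for the members, 0.09 for other mitotic genes, 0.04 for APC/C core subunits, -0.09 for S phase genes and 0.01 for all genes.

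A list of 20 regulators had a median of 0.01, and 0 passed in either direction with edgeR. Of these, 18 were subunits or relatives of the factors that act on such promoters. The other 2, Wee1 and Pkmyt1, were kinases that hold CDK1 inactive. At an unadjusted p under 0.05, 3 of the 20 were higher (background 5.81%) and 1 lower (background 4.61%). DESeq2 called 2, E2f2 and Foxm1, as higher (background 3.95%). Foxm1, the forkhead factor known to join the MuvB complex at CHR promoters, was at 49.1 and 43.4 TPM in KO and 29.8 and 31.1 TPM in Control, without overlap (log2 fold change 0.48, SE 0.125, unadjusted p = 0.00478, edgeR adjusted p = 0.237). E2f2 had a log2 fold change of 0.92 from counts (edgeR adjusted p = 0.10), with 18.7 and 18.5 TPM in KO and 9.24 and 18.2 TPM in Control. Nfya, an NF-Y subunit, had a log2 fold change of 0.26 and E2f4, a DREAM subunit, -0.28, both at an unadjusted p under 0.05. Of 13 cell cycle inhibitors and quiescence genes none passed with edgeR, and DESeq2 called 2, Foxo3 and Ccng2, as higher (background 3.95%). At an unadjusted p under 0.05 Foxo3 (0.50) and Ccng2 (0.51) were higher (background 5.81%) and Btg1 (-0.93) was lower in KO (background 4.61%). The Btg1 value rested on Control replicate 2, with 36.4 and 38.6 CPM in KO and 42.6 and 98.6 CPM in Control, and was -0.18 without that library (edgeR adjusted p = 0.731).

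Markers of several other cell types moved with the groups. Over all genes tested, 0.451% passed as higher in KO and 0.212% as lower. Of 6 markers of multipotent and lymphoid-primed progenitors, 2 passed as higher in KO (Satb1 and Cd48), and their summed level was 1212 and 1231 TPM in KO and 868 and 937 TPM in Control. Of 11 B lineage markers 10 passed as higher, with sums of 695 and 471 TPM in KO and 69.1 and 102 TPM in Control. Of 7 mast cell markers 4 passed as higher, with sums of 357 and 440 TPM in KO and 87.6 and 42.2 TPM in Control. In Control, Cma1 and Tpsb2 were listed at 0 and Mcpt4 at 0.08 and 0 TPM, so these passed the low-count filter through KO alone. Of 12 erythroid markers 7 passed as lower, with sums of 631 and 686 TPM in KO and 1513 and 1410 TPM in Control, and of 9 neutrophil and monocyte progenitor markers 1 passed as lower, with sums of 3453 and 3918 TPM in KO and 6674 and 5079 TPM in Control. Of 6 megakaryocyte markers 0 passed in either direction, with sums of 129 and 105 TPM in KO and 192 and 163 TPM in Control. Of 7 T and NK cell markers 3 were tested and 1, Tcf7, passed as higher. Their sums were 167 and 160 TPM in KO and 201 and 212 TPM in Control. The part of these cell types in the values of the mitotic genes was not tested.

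Control replicate 2 stood apart from the other libraries in immediate early genes, which many stimuli switch on fast. The cause was not tested. The sum of 7 such genes was 428 and 352 TPM in KO and 540 and 6165 TPM in Control. It was also the library in which most members were lowest. Without Control replicate 2, 35 of 44 members had a log2 fold change above 0 (55.5% of all genes), and none passed (lowest adjusted p = 0.15). Without Control replicate 1, 36 had (54.7% of all genes). The log2 fold change was then 0.53 for Mki67 and 0.63 for Nusap1, against 0.28 and 0.34 without Control replicate 2. In both runs the Control group was 1 library, assumed to vary like the KO pair. Leaving out 1 library turned the sign for 14 members, among them Plk1, Bub1, Ccnb2, Cdca8 and Kif20a, and the sign of 27 members held in every alternative run.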

How the data were processed

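RNA came from sorted bone marrow cells kept in RNAlater, with 2 KO and 2 Control libraries. Groups were taken from the labels. STAR, RSEM and mm10 are named in the submitters' processing notes, with no version, and whether counting used strand was not found. The authors deposited RSEM expected counts per gene, which are estimated counts without normalization, and TPM, which scales for depth and effective length. Other deposited values read here were the effective length and the posterior mean and SD of the count. The posterior SD was at most 0.0546% of a member's mean count. Symbols came from GENCODE M21 (55141 of 55401 models).

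Expected counts were rounded and tested with edgeR 4.0.16 under R 4.3.3 (robust quasi-likelihood fit, TMM, filterByExpr with a minimum count of 10), two-sided, with Benjamini-Hochberg adjustment over 14635 genes and a threshold of 0.05. Alternatives were DESeq2 1.42.0, DESeq2 size factors, no filter and a stricter filter (50 counts in 2 libraries), a replicate block, the length offset, limma 3.58.1 on log2(TPM + 1) and log2(TPM + 0.1) for genes with a mean above 1 TPM, posterior mean counts, and leaving out each library. More than counting noise separated the replicates (70.6% of genes in KO, 72.7% in Control).

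The members and gene lists were chosen with earlier results of these data known. Full statistics were given for Mki67, Ccnb1, Cdk1, Plk1, Top2a and the 3 members of each role with the smallest p, and up to 4 genes with the smallest p were named from each other list. Kif11, Kif18b and the markers named for levels were chosen after their values were seen. Shared sequence was counted as 50-base words of a transcript that occur in another gene model. RefSeq promoters (GRCm38.p6) were matched by symbol.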

Additional observations from a re-analysis of the deposited data

How the results depend on the processing

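With 2 libraries a group, each p-value leans on the spread pooled over genes. The count of members called higher, 0 in the main test, was 10 with DESeq2 (Cdc25b, Cenpe, Cenpf, Kif11, Kif18b, Tpx2, Nusap1, Hmmr, Espl1 and Mki67), 1 with no filter (Mki67, adjusted p = 0.0356) and 0 to 2 when 1 library was left out. The count called lower was 0 under every alternative run. The share of all genes at an adjusted p under 0.05 was counted for the main test and DESeq2 only. At an unadjusted p under 0.05 the count higher was 11, against 6 with limma at pseudocounts of 1 and 0.1 (4.31% and 4.19% of all genes), and 5 to 19 when 1 library was left out (5 without KO replicate 1, where 2.25% of all genes were, and 19 without Control replicate 1, where 8.06% were). Other mitotic genes called higher numbered 1, against 4 with DESeq2, 0 with the length offset and with limma at either pseudocount, and 0 to 4 when 1 library was left out (4 without Control replicate 1). S phase genes called lower numbered 0, against 3 with DESeq2, 1 with no filter and 0 to 1 when 1 library was left out. The median log2 fold change of the members was 0.21 and ran over 0.15 to 0.31 when 1 library was left out. The median of all genes was 0.01, with 0.04 for DESeq2, 0.05 with no filter and -0.01 to 0.06 when 1 library was left out. The cause of these changes was not tested.

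With limma at the pseudocounts of 1 and 0.1, the log2 fold change was -0.01 at both for Cenpa, -0.10 at both for Cenpf and -0.31 at both for Kif23. With the length offset it was -0.03 for Cenpa, -0.16 for Cenpf, -0.33 for Kif23, -0.01 for Dlgap5 and -0.01 for Pttg1. Rfc5, a clamp loader subunit with -0.32 in the main test, was at 0.33 with the offset and 0.31 with limma at either pseudocount. Leaving out 1 library gave ranges that crossed 0 for Ccnb2 (-0.02 to 0.50), Cdc25c (-0.05 to 0.85), Plk1 (-0.16 to 0.19), Aurka (-0.32 to 0.06), Cdca8 (-0.15 to 0.20), Bub1 (-0.02 to 0.15), Ttk (-0.39 to 0.06), Spc25 (-0.16 to 0.34), Sgo1 (-0.08 to 0.33), Kif2c (-0.14 to 0.43), Kif20a (-0.10 to 0.14), Kif23 (-0.06 to 0.35), Anln (-0.15 to 0.51) and Pttg1 (-0.28 to 0.42).

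No shared deviation of same-numbered libraries was seen, with a correlation of -0.0241 across genes. A pairing with a small effect, or an effect on few genes, would not show in this value. With the replicate block 0 members were called in either direction, and the lowest adjusted p was 0.0573. At an unadjusted p under 0.05, 11 members were higher, where 5.03% of all genes were.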
